A study of Mus musculus with 13 samples.

Results

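The 54 genes described here are the mouse collagen and laminin chains in the deposited count table, taken by symbol (a name of the form Col followed by a number, a and a number, or Lama, Lamb or Lamc followed by a digit). They are 43 collagen and 11 laminin genes of 35972 rows. By known assembly form, 19 encode basement membrane chains (collagen IV, the collagens XV and XVIII of the basement membrane zone, and the laminins), 11 encode fibrillar collagens, and 24 encode other collagens.

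Laminins are secreted trimers of an alpha, a beta and a gamma chain. They polymerise on cell surfaces that hold integrins and dystroglycan, and a network of collagen IV trimers, tied to laminin by nidogens and perlecan, completes the basement membrane. In the developing neocortex such sheets surround blood vessels and underlie the pia, where the end-feet of radial glia, the neural stem cells, attach. Fibrillar collagens form the banded fibers of connective tissue, which in and around the brain belong mainly to meninges and vessel walls.

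RNA was measured in 10 libraries. Of these, 5 came from cells that received Fezf2 and GFP plasmids and 3 from cells that received GFP, all from CD-1® IGS mice electroporated in utero at E16.5 (embryonic day) and sorted by fluorescence from the neocortex at postnatal day 3. The other 2 were made from C57BL6/J neocortices on the day of birth (postnatal day 0), titled Emx-cre KO (Fezf2 knockout, a floxed allele removed in progenitors by Emx1-cre) and Emx-cre WT (Fezf2 wild type). The sources used here do not give whether wild type carried Cre, nor how many animals went into a library. Since nothing says that the libraries of a group came from separate litters or animals, p-values measure the spread between these libraries.

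Total counts were 3245932 to 5801839 per sorted-cell library, 17856211 in the library labelled knockout and 11818437 in wild type. Mitochondrially encoded genes took 21.0% to 27.1% of the sorted-cell counts and 0% of the neocortex counts. Xist, an RNA of female cells, stood at 5134 CPM in GFP replicate 1 and 5098 CPM in Fezf2 replicate 5. In the other sorted-cell libraries it had 17.7 to 25.3 CPM, so the libraries differed in sex. Fezf2 stood at 85.1 to 151 CPM (counts scaled to library size with TMM factors, the unit used throughout) with Fezf2 and 3.54 to 12 CPM with GFP. It had 53.5 CPM in the library labelled knockout against 51.4 in wild type, a whole-gene count that cannot check a partial deletion, so directions from that pair rest on its label. Fezf2 replicates 1, 2 and 4 had the lowest mean correlation with the other sorted-cell libraries, 0.904 to 0.913 against 0.929 to 0.938.

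Stretches of DNA near the starts of 4 member genes are shown, because 2 collagen IV genes share a start region and 2 fibrillar genes of connective tissue hold different motifs there. The sequences are RefSeq's, build GRCm38.p6, plus strand, 5′ to 3′. Capitals mark GGGCGG (the GC box), CCAAT (the CCAAT box) and TATAAA (the TATA box), each searched on both strands.
Col4a2 start to Col4a1 start, chr8:11312805-11312826: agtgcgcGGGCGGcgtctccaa
Col1a2, the 250 bases before its start, chr6:4505368-4505617: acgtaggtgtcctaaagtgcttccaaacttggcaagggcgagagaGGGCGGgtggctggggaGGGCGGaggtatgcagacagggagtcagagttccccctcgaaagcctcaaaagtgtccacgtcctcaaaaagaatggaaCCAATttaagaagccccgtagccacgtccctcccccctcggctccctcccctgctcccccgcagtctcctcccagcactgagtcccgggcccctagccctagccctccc
Col3a1, the 250 bases before its start, chr1:45311288-45311537: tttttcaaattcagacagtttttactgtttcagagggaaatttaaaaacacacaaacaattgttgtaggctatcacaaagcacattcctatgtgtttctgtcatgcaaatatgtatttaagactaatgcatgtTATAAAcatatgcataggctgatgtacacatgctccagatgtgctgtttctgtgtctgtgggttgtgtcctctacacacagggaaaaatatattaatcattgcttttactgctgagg

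Col4a1 and Col4a2 lie on opposite strands with starts 21 bases apart. By these starts their first 22 bases overlap, and the 1 GC box lies in that overlap. Col4a5 and Col4a6 on the X chromosome, another head-to-head pair, start 1343 bases apart. Upstream of Col1a2 the letters hold 2 GC boxes and 1 CCAAT box, and upstream of Col3a1 1 TATAAA. In 300-base windows around the start (250 before, 50 after) of the 40 members with an entry, GGGCGG occurred in 25 (62.5%, against 35.7% of all 32851 windows). CCAAT occurred in 14 (35%, against 37.4%) and TATAAA in 5 (12.5%, against 13.6%), none of them among the 12 basement membrane genes matched and 2 among the 8 fibrillar genes. These are matches of letters, not tested sites.

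Levels of different genes are compared here as CPM divided by gene length in kilobases. In sorted cells the highest members were Col9a3, an alpha chain of the fibril-associated collagen IX, at 11.6 ± 2.50 CPM per kb (SD over the 8 libraries), and Lamc1, the gamma chain of most laminins, at 9.08 ± 1.84. Col11a1, a fibrillar chain, followed at 5.13 ± 1.12 CPM per kb. The next were the collagen IV genes Col4a1 (2.83 ± 1.06) and Col4a2 (2.77 ± 0.86), the laminin genes Lamb1 (2.21 ± 0.50), Lamb2 (2.00 ± 0.93) and Lama2 (1.78 ± 0.36), and Col23a1, a collagen anchored in the cell membrane (2.10 ± 0.74). Neighbours within that last group lay closer together than their spread.

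Most other members were scarce. With GFP, 46 of 54 had a mean under 10 CPM, and 24 had a count of 0 in at least 1 sorted-cell library. Lamb3 and Lamc3 were at 0 in 6 and 5 of the 8 libraries, and Col8a2 in 7.

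Wild-type neocortex had another order. Col4a1 led with 19.3 CPM per kb and Col4a2 had 17.2, ahead of Col9a3 (10.8), Lamc1 (8.54) and Lamb1 (5.61). Col15a1, of the basement membrane zone of vessels, had 4.25 CPM per kb, against 0.52 ± 0.49 in sorted cells. Beside the GFP mean, wild-type neocortex was 9.23 times as high for Col4a1, 6.33 times for Col4a2 and 5.25 times for Col11a2, but 1.09 times for Lamc1, 0.79 times for Col9a3 and 0.62 times for Col11a1. These 2 kinds of library differ in strain, age, cells and library kit, so the values are set side by side without a test. Their CPM also have no common scale. Mitochondrially encoded genes took 21.0% to 27.1% of sorted-cell counts and 0% of neocortex counts, and TMM factors were computed apart. Small ratios, such as those of Lamc1 and Col9a3, therefore give no direction. In bulk RNA, fewer cells of a type and less RNA per cell cannot be told apart.

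Ratios between chains, by length, showed this contrast for some pairs and not for others. Col4a1 per Lamc1, both by length, was 0.16 to 0.47 over the sorted-cell libraries, 2.26 in wild-type neocortex and 2.10 in the library labelled knockout. Col4a1 and Col4a2, which form one trimer, stood at a ratio of 1.12 in wild type and 1.19 in the library labelled knockout, and at 0.40 to 1.49 in sorted cells, where each had 30 to 124 counts. Lamc1 exceeded the 5 alpha chains together by 1.79 to 3.69 times in sorted cells. In wild type it did so by 1.26 times and in the library labelled knockout by 1.67 times. Lamb1 over Lamb2 was 0.55 to 2.61 in sorted cells, 1.63 in wild type and 1.91 in the library labelled knockout. Col9a3 exceeded its partners Col9a1 and Col9a2 together by 4.62 to 11.6 times in 7 sorted-cell libraries, while in Fezf2 replicate 2 both partners had 0 counts. In wild type that ratio was 4.38 and in the library labelled knockout 5.35. Col11a1 was 6.37 to 19.3 times as high as Col11a2 in sorted cells and 1.21 times in wild type.

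**Figure D1:**
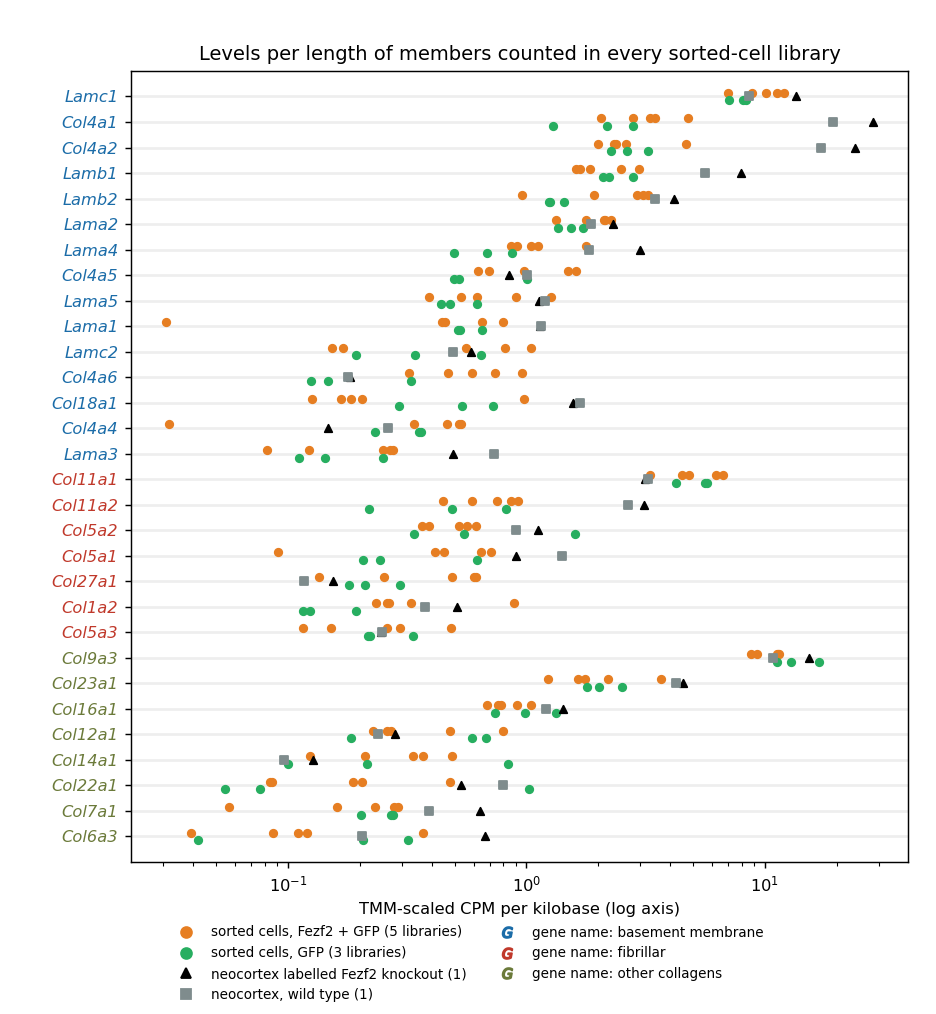
Level per gene length (CPM per kilobase, log axis) of the members with at least 1 count in every sorted-cell library, 1 row per gene and 1 point per library, with the colour of the gene name giving its class. Collagen IV genes Col4a1 and Col4a2 lie far to the right in both neocortex libraries. Wild type lies within the sorted-cell range for Lamc1 and Col9a3 and below that range for Col11a1. The library labelled knockout lies above the sorted-cell range for Lamc1, at 13.5 CPM per kb.

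Marker genes fixed for the cells that make these chains were also summed. Endothelial markers (12 genes, among them Cldn5 and Pecam1) summed to 12.9 to 69.1 CPM in sorted cells and 173 in wild-type neocortex. Mural markers (10 genes of pericytes and smooth muscle) summed to 58.7 to 224 CPM in sorted cells and 145 in wild type. Rgs5 (17.7 to 116 and 44.0 CPM) and Notch3 (15.3 to 55.7 and 35.7 CPM) were the largest parts. Abcc9 (1.88 to 10.3 and 18.4 CPM) and Vtn (0 to 3.17 and 9.14 CPM) were higher in wild type than in every sorted-cell library. Meningeal fibroblast markers (12 genes) summed to 5.31 to 22.7 and 15.7 CPM, with Foxd1 at 0 in all sorted-cell libraries. Radial glia and astrocyte markers (14 genes) summed to 4368 to 12295 CPM in sorted cells and 1874 in wild type, and cortical excitatory neuron markers (10 genes) to 3485 to 6556 and 7826 CPM.

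The comparison of cells given Fezf2 with cells given GFP found no collagen or laminin gene that passed. Of the 54 members, 35 had enough counts to be tested, and 0 of them passed edgeR's quasi-likelihood test at an adjusted p of 0.05, where 0.0145% of all 13754 tested genes did. DESeq2 and limma also called 0. At an unadjusted p under 0.05 edgeR gave 3 members, all with higher means with Fezf2 (4.31% of all genes), and none with a lower mean (2.24% of all genes). They were Col4a6, Lamb2 and Col1a2. The groups did not overlap for 1 member, Col1a2, on the higher side (2.25% of all genes) and for none on the lower side (2.46% of all genes). Without Fezf2 replicate 2 or GFP replicate 3 that count of 3 was 1, without Fezf2 replicate 3 it was 6, and without Fezf2 replicates 1, 2 and 4 together it was 0. Its direction was not stable either: without GFP replicate 2 it was 1 higher and 2 lower, and with no low-count filter 4 higher and 2 lower.

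Col4a6, an X-linked collagen IV chain, had 7.67, 4.75, 2.58, 3.76 and 5.94 CPM in Fezf2 replicates 1 to 5 and 2.64, 1.0 and 1.18 CPM in GFP replicates 1 to 3. All but 1 of the Fezf2 libraries lay above every GFP library, and replicate 3 lay just within the GFP range. The log2 difference (Fezf2 minus GFP, as fitted by edgeR) was 1.56 (SE 0.62, edgeR adjusted p = 0.729), resting on 4 to 26 counts per library. The libraries with high Xist, Fezf2 replicate 5 and GFP replicate 1, had 5.94 and 2.64 CPM, and the part of sex was not tested.

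Lamb2, the laminin beta chain of synapses, muscle and the pial sheet, had 18.3, 16.4, 5.40, 17.3 and 10.8 CPM with Fezf2 and 8.09, 7.02 and 7.08 CPM with GFP. Fezf2 replicate 3 was the lowest of all 8 libraries, and the other Fezf2 libraries were above the GFP range. The log2 difference was 0.87 (SE 0.40, edgeR adjusted p = 0.754).

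Col1a2, a chain of collagen I, had 3.24, 10.8, 3.99, 3.18 and 2.84 CPM with Fezf2 and 1.41, 1.51 and 2.36 CPM with GFP. Fezf2 replicate 2 stood far above the rest. The log2 difference was 1.46 (SE 0.65, edgeR adjusted p = 0.748), and 0.92 without that library.

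**Figure D2:**
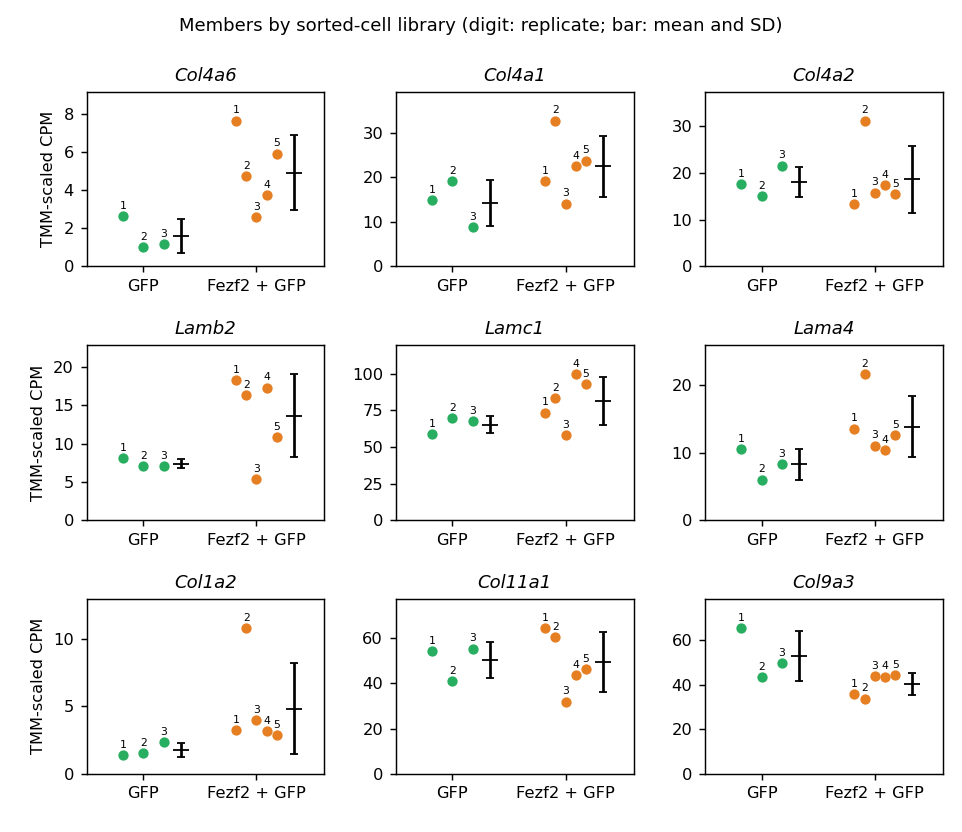
CPM of 9 members in each sorted-cell library, with the replicate number beside each point and the mean and SD of the group as a bar. Fezf2 replicate 2 is the highest point for Col4a1, Col4a2, Lama4 and Col1a2, whereas for Col11a1 the GFP points lie inside the wider Fezf2 range and for Col9a3 GFP replicate 1 is the highest.

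None of the abundant basement membrane chains passed the test, and the groups overlapped for each. Lamc1 had 73.4, 83.6, 58.3, 99.7 and 93 CPM with Fezf2 and 58.6, 69.5 and 67.5 with GFP, a log2 difference of 0.32 (SE 0.19, edgeR adjusted p = 0.809). Fezf2 replicate 3 was its lowest library and the other Fezf2 libraries were above the GFP range.

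Col4a1 had 19.2, 32.7, 14.1, 22.5 and 23.8 CPM with Fezf2 and 14.9, 19.1 and 8.85 with GFP (log2 difference 0.64, SE 0.33, edgeR adjusted p = 0.780). Its head-to-head partner Col4a2 had 13.3, 31.1, 15.7, 17.3 and 15.5 CPM against 17.6, 15.1 and 21.5 (0.05, SE 0.31, edgeR adjusted p = 0.989, and −0.23 without Fezf2 replicate 2). The groups overlapped for both, and replicate 2 was the highest Fezf2 library for both. Lamb1 had 29.5, 18.5, 24.9, 16.8 and 16.0 CPM against 20.8, 22.1 and 27.7 (−0.15, SE 0.27, edgeR adjusted p = 0.932).

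Among the alpha chains, which set where a laminin binds, Lama4 of vessel walls stood at a log2 difference of 0.73 (SE 0.35), Lama5 at 0.54 (SE 0.44), Lama2 at 0.33 (SE 0.27) and Lama1 of the early pial sheet at −0.23 (SE 0.62). Col4a5 stood at 0.70 (SE 0.48), Col18a1, the source of endostatin, at −0.65 (SE 0.73) and Col15a1 at −1.11 (SE 0.94). None passed, and Col15a1 had 0 counts in Fezf2 replicates 2 and 4, with a value of −0.18 without GFP replicate 2. Of all tested genes, 52.9% had a log2 difference above 0. Among those in the members' range of length, 3.11 to 15.3 kb, 57.1% did. Both shares are the background of the counts above 0 in sorted cells that follow. Over the 15 basement membrane genes tested, 11 had a log2 difference above 0, and the median was 0.33, beside 0.02 over all tested genes. Taken library by library against the mean of GFP, that median stood at 0.33, 0.48, −0.03, 0.35 and 0.51 with Fezf2 and −0.02, −0.08 and 0.05 with GFP. Genes reach the test by having enough counts in a few libraries, so medians over tested members describe those members alone.

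Fibrillar collagens were uneven. Col11a1 had 64.6, 60.4, 32.0, 43.6 and 46.5 CPM with Fezf2 and 54.2, 41.1 and 55.4 with GFP, and the GFP libraries lay inside the wider Fezf2 range (log2 difference −0.03, SE 0.23, edgeR adjusted p = 0.992). Its partners in cartilage-type fibrils had few counts: Col11a2 had 3.05 to 6.33 CPM with Fezf2 and 1.51 to 5.60 with GFP, and Col2a1 had 0 to 4.33 and 0.25 to 5.28 CPM. Of the chains of collagens I and V, Col1a1 stood at a log2 difference of 0.90 (SE 0.84), Col5a1 at 0.34 (SE 0.66) and Col5a2 at −0.73 (SE 0.50). For Col5a2, GFP replicate 3 had 15.3 CPM against 3.26 to 5.90 in the other 7 libraries, and the value was 0.13 without it. Col27a1, a long fibrillar chain of developing skeleton, stood at 0.85 (SE 0.57). Over the 8 fibrillar genes tested the median was 0.42 with 5 above 0, or 0.00245 with no low-count filter, and in the Fezf2 libraries it ranged from 0.12 to 0.97 against −0.39 to 0.26 in the GFP libraries.

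Of the 12 other collagens tested, 11 had a log2 difference below 0 (6472 of all 13754 tested genes did), with a median of −0.29. Library by library that median was −0.44, −0.63, 0.0039, −0.66 and 0.11 with Fezf2 and −0.09, −0.06 and 0.35 with GFP, so the groups overlapped. Col9a3, the highest member per length in sorted cells, had 35.7, 33.8, 43.9, 43.6 and 44.4 CPM with Fezf2 and 65.4, 43.4 and 49.5 with GFP. Fezf2 replicates 1 and 2 lay below the GFP range and the others at its lower end (log2 difference −0.39, SE 0.20, edgeR adjusted p = 0.780). Col23a1 stood at 0.00 (SE 0.36). Most of the remaining genes of this class had means under 5 CPM.

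**Figure D3:**
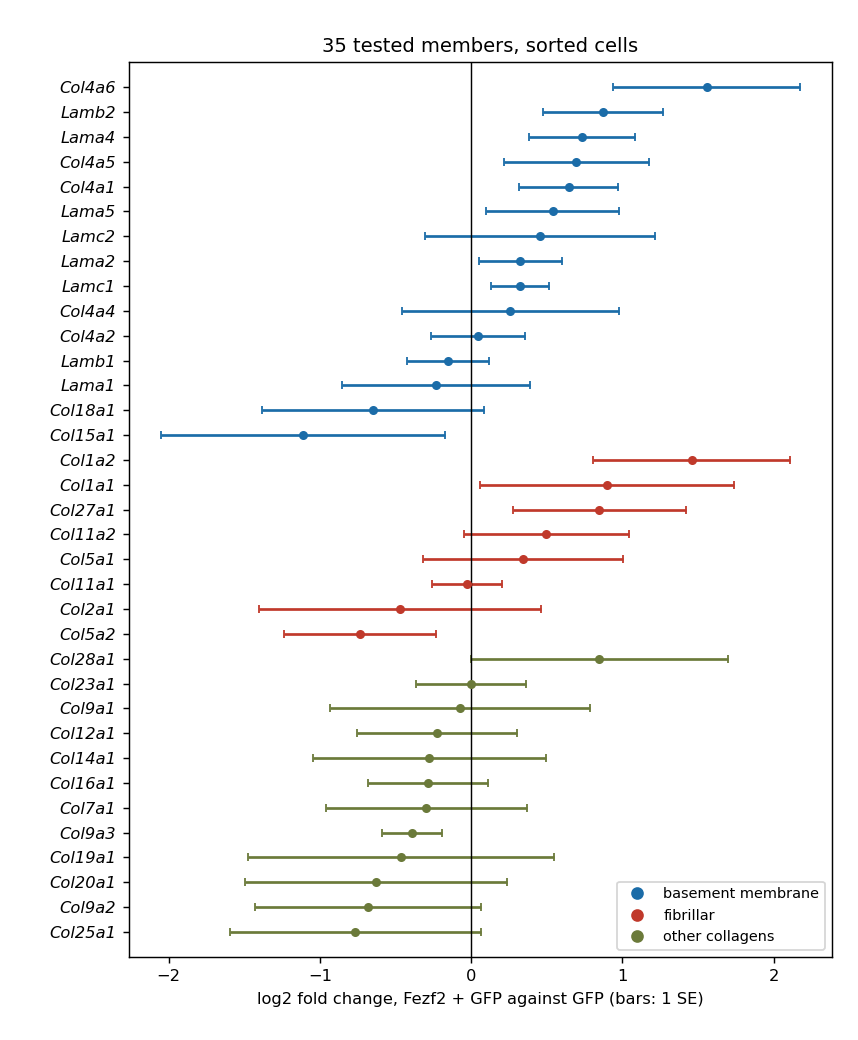
Log2 difference of each tested member in sorted cells, Fezf2 + GFP against GFP, with 1 SE either side, grouped by class. Most basement membrane genes lie right of 0 and all but 1 of the other collagens left of it, and none passed the adjusted test.

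Marker sums also differed between the sorted-cell libraries. Mural markers summed to 84.6, 224, 77.8, 168 and 133 CPM in Fezf2 replicates 1 to 5 and 74.7, 79.3 and 58.7 in the GFP libraries. Of 6 tested mural markers, 6 were above 0, and 3 were higher at an unadjusted edgeR p under 0.05 (4.31% of all genes). Those were Rgs5, Pdgfrb and Notch3. The others stood at log2 differences of 1.72 (Kcnj8, SE 1.10), 0.33 (Abcc9, SE 0.57) and 0.36 (Tagln, SE 0.58). Acta2, too scarce to be tested, had 0 to 0.58 CPM with Fezf2 and 1.25 to 2.06 with GFP. Endothelial markers summed to 29.5, 69.1, 12.9, 29.5 and 28.7 CPM against 27.3, 21.8 and 31.3. Fezf2 replicate 2, the highest for Col4a1, Col4a2, Lama4, Col18a1 and Col1a2, was also the highest for both sums. Replicate 3, the lowest Fezf2 library for Col4a1, Lamb2 and Lamc1, was the lowest Fezf2 library for both sums. Other members had another order: Lamc1 was highest in Fezf2 replicate 4, and Lamb1 and Lamb2 in replicate 1. Among Fezf2 libraries, Col4a2 was lowest in replicate 1, Lama4 in replicate 4, and Col1a2 and Lamb1 in replicate 5. No endothelial or mural marker was at 0 in all 8 libraries. Radial glia and astrocyte markers summed to 4368, 9408, 4912, 12295 and 8671 CPM with Fezf2, and to 4599 to 6004 with GFP. Oligodendrocyte lineage markers summed to 700 to 1659 CPM with Fezf2 and 585 to 780 with GFP. Of these, 8 of 8 were above 0, and 4 were higher at an unadjusted edgeR p under 0.05 (4.31% of all genes). Cortical excitatory neuron markers summed to 3485 to 6046 CPM with Fezf2 and 6369 to 6556 with GFP, with no overlap. Of these, 2 of 10 were above 0. At an unadjusted edgeR p under 0.05, there were 4 lower (2.24% of all genes) and 1 higher (4.31% of all genes). The part of these cell types in the members' values was not tested.

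**Figure D4:**
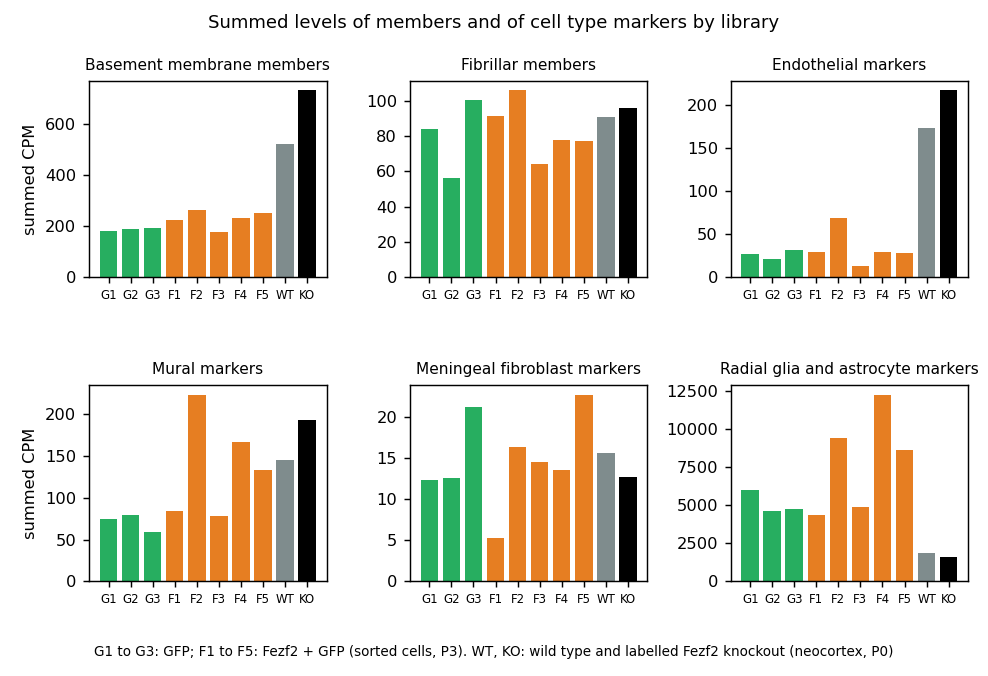
Summed CPM of the basement membrane and fibrillar members and of 4 marker lists in each library (bars from 0). Basement membrane and endothelial sums are highest in the 2 neocortex libraries, and Fezf2 replicate 2 has the highest mural and endothelial sums among sorted cells.

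Genes that act with these chains were read from lists, and none passed edgeR's adjusted p with the low-count filter. The fit with no filter called 117 of 26328 genes, against 2 of 13754 with the filter. Among 13 tested partners in the basement membrane (11 above 0, median 0.42), the linker Nid1 had 37.5 CPM in Fezf2 replicate 2 and 4.93 to 11.8 in the other Fezf2 libraries, against 6.15 to 16.6 with GFP, so that its log2 difference of 0.58 was −0.16 without replicate 2. Nid2 and perlecan (Hspg2) stood at log2 differences of 1.13 (SE 0.74) and 0.59 (SE 0.45), and the proteoglycan agrin (Agrn), at 321 ± 25.8 CPM (SD, n = 5) against 312 ± 6.70 (n = 3), at 0.04 (SE 0.13). Without Fezf2 replicates 1, 2 and 4, Nid2 was −0.21 and Hspg2 −0.0494. Fibulin 2 (Fbln2), a binding partner of nidogen and laminin, had 9.14, 25.6, 26.3, 44.8 and 35.4 CPM with Fezf2 and 14.2, 8.78 and 11.8 with GFP. Replicate 1 was within the GFP range and the others above it (log2 difference 1.27, SE 0.40, edgeR adjusted p = 0.729, or 0.0198 with no filter).

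Among 12 tested receptors (10 above 0), the laminin-binding integrin alpha chain Itga6 had 12.4, 72.8, 39.5, 69.0 and 40.8 CPM with Fezf2 and 20.4, 27.6 and 23.0 with GFP. Replicate 1 was below the GFP range and the others above it (0.99, SE 0.41, edgeR adjusted p = 0.729, or 0.0334 with no filter). Its partner Itgb1 had 81.4 to 172 CPM against 134 to 141 (−0.06, SE 0.20). The laminin receptor dystroglycan (Dag1) stood at 0.37 (SE 0.20), and Adgrg1, formerly Gpr56, a receptor of collagen III on radial glia, at 0.49 (SE 0.28). Its ligand gene Col3a1 had 0 to 7.08 CPM in sorted cells and was not tested.

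Of 21 tested genes of collagen synthesis and crosslinking, 14 were above 0 (52.9% of all tested genes, or 57.1% of those in the members' range of length). The collagen chaperone Serpinh1 (17.5 ± 11.2 CPM, n = 5, against 7.98 ± 0.86, n = 3), the prolyl hydroxylation factor Crtap (3.84 ± 1.23 against 1.05 ± 0.26 CPM) and the collagen-folding enzyme Fkbp10 (13.2 ± 7.63 against 6.12 ± 1.83 CPM) had log2 differences of 1.12, 1.83 and 1.09. Of 9 tested matrix proteases and inhibitors, 5 were above 0 (median 0.15), and the membrane protease Mmp15, the 1 at an unadjusted p under 0.05, stood at 0.59 (SE 0.26).

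Neocortex labelled as lacking Fezf2 was set against wild type at birth, 1 library each, so values carry exact 95% binomial intervals for counting error and no test. The main basement membrane chains were higher in the library labelled knockout, the fibrillar chains showed no common direction, and one membrane collagen of neurons was lower. Of 14 basement membrane genes reaching 5 CPM in one of the libraries, 9 had an interval above 0 (30.9% of 11218 genes did) and 1 an interval below 0 (30.8% of all genes). Their median log2 ratio was 0.39, beside 0.01 over all these genes and −0.03 over the 7334 genes of the members' range of length, 3.11 to 15.3 kb.

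Col4a1 had 194 CPM in the library labelled knockout and 132 in wild type, a log2 ratio of 0.55 (interval 0.47 to 0.64). Col4a2 had 158 and 114 CPM (0.47, interval 0.38 to 0.56). The intervals of this pair, which shares a start region, overlapped. Lamc1 had 112 and 70.9 CPM (0.66, interval 0.54 to 0.78), Lamb1 79.2 and 55.8 CPM (0.50, interval 0.37 to 0.64) and Lama4 36.2 and 22.3 CPM (0.70, interval 0.49 to 0.91). Chains that assemble into the vascular laminin of alpha 4, beta 1 and gamma 1 were thus each higher.

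Col15a1 had 49.2 and 27.1 CPM (0.86, interval 0.67 to 1.05), and Lamc3, at 5.54 and 3.30 CPM, had a log2 ratio of 0.73. Lama2 and Lamb2 were smaller differences, at 0.31 and 0.27. Lama1, Lama5, Col18a1 and Col4a5 had intervals that included 0, at −0.01, −0.08, −0.09 and −0.24. Lama3, a chain of epithelia, was lower at 5.21 and 7.70 CPM (−0.55, interval −1.0 to −0.13).

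Among 6 fibrillar genes at this level, none had an interval above 0 (30.9% of all genes did). Col11a1 had 30.5 and 31.2 CPM (−0.04), Col11a2 21.3 and 18.3 (0.22), Col5a2 10.8 and 8.72 (0.31), Col1a2 6.22 and 4.57 (0.43) and Col2a1 6.89 and 7.45 (−0.11). Col5a1 was lower, at 7.67 and 12 CPM (−0.64, interval −1.0 to −0.30). Col3a1 fell just short of the level required, at 4.82 and 1.86 CPM, or 86 and 22 counts, with a log2 ratio of 1.31 (interval 0.68 to 2.12).

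Differences of 2-fold or more were seen in 2 members. Col6a3, a chain of the beaded filaments of connective tissue, had 8.06 and 2.45 CPM (144 and 29 counts), a log2 ratio of 1.66 (interval 1.13 to 2.35). It was the 1 member past 2-fold on the higher side, where 1.01% of all genes were. Its partner Col6a2 had 7.95 and 4.82 CPM (0.71, interval 0.27 to 1.19). Col25a1, a membrane collagen made by neurons, had 5.49 and 13.8 CPM (98 and 163 counts), a log2 ratio of −1.31 (interval −1.71 to −0.96), the 1 member past 2-fold on the lower side (1.32% of all genes). In sorted cells Col25a1 had 0 to 6.19 CPM with Fezf2 and 2.26 to 5.01 with GFP (log2 difference −0.77, SE 0.83, edgeR adjusted p = 0.885).

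The remaining genes of the other collagens, most of them fibril-associated, went both ways. Col9a3 was higher at 59.3 and 41.7 CPM (0.51, interval 0.35 to 0.66), and Col7a1, of anchoring fibrils, had a log2 ratio of 0.70. Col19a1, which is expressed by some neurons, was lower at 11.6 and 15.5 CPM (−0.41, interval −0.71 to −0.12), as was Col22a1 at −0.57. Col23a1, Col16a1 and Col9a2 had intervals that included 0.

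**Figure D5:**
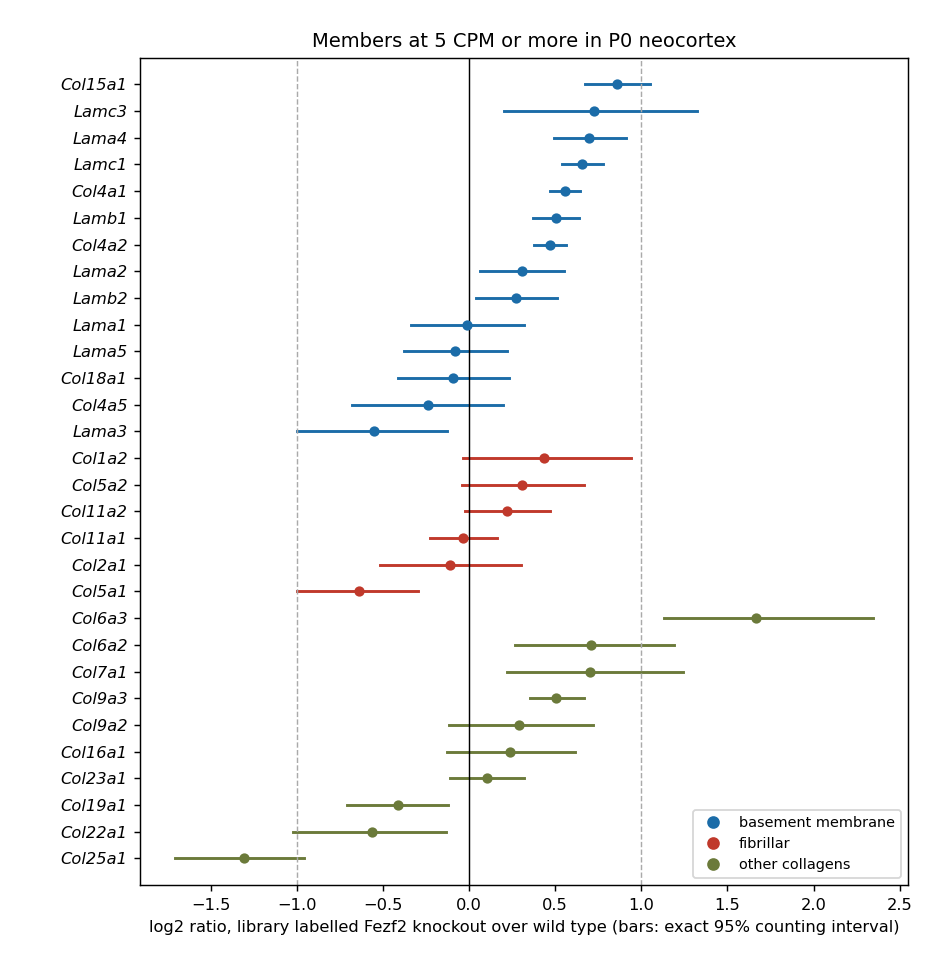
Log2 ratio of the library labelled Fezf2 knockout over wild type for the 30 members with at least 5 CPM in either library, with exact 95% counting intervals and dashed lines at 2-fold. Col15a1, Lama4, Lamc1, Col4a1, Lamb1 and Col4a2 lie between 0.47 and 0.86, and Col25a1 and Col6a3 are the 2 members past the dashed lines.

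Partners of the basement membrane were also higher in the library labelled knockout: 9 of 12 had an interval above 0 and none below, with a median of 0.40. For this and the next counts, the shares over all 11218 genes were 30.9% above 0 and 30.8% below. Perlecan (Hspg2) had 75.8 and 36.5 CPM (1.05, interval 0.90 to 1.22), Nid2 22.5 and 11.3 (0.99), Nid1 47.2 and 33.4 (0.50) and Agrn 1067 and 806 (0.40). Of 19 genes of collagen synthesis and crosslinking, 13 had an interval above 0 and 3 below, with a median of 0.28. The crosslinking enzyme Loxl2 had 21.2 and 7.95 CPM (1.40, interval 1.08 to 1.75) and the hydroxylation factor Crtap 5.43 and 2.62 (1.01), while the lysyl hydroxylase Plod2 (−0.84) and the collagen galactosyltransferases Colgalt2 (−0.79) and Colgalt1 (−0.19) were lower. Of 11 proteases and inhibitors, 5 had an interval above 0 and 1 below. Mmp9, a protease that cleaves collagen IV, had 17.9 and 8.55 CPM (1.06), and the membrane protease Mmp16 39.6 and 48.2 (−0.28). Receptors were not: of 9, 2 had an interval above 0 and 2 below, with Itga6 at −0.31, Itgb1 at −0.17, Dag1 at −0.07 and Adgrg1 at 0.07. Serpinh1 stood at 0.21.

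Vessel markers were also higher in sum there. Of all 11218 genes, 30.9% had an interval above 0 and 30.8% below. Endothelial markers summed to 217 CPM in the library labelled knockout and 173 in wild type (median log2 ratio 0.28, 5 of 10 intervals above 0 and 1 below). Mural markers summed to 194 and 145 CPM (median 0.53, 5 of 7 above 0 and none below). Among them were Cldn5 of tight junctions (0.66), Pecam1 (0.65), Pdgfrb (0.53) and Abcc9 (0.80), while Tek stood at −0.47 and Kdr at 0.14. Meningeal fibroblast markers summed to 12.7 and 15.7 CPM, with Slc6a13 and Aldh1a2 at or near 0 in both. Only 1 of them reached 5 CPM: Dcn, at 2.80 and 5.08 CPM (−0.83, interval −1.43 to −0.29). Red blood cell markers summed to 83.4 and 45.3 CPM. Radial glia and astrocyte markers were lower, at 1617 and 1874 CPM (median −0.42, 9 of 13 intervals below 0 and 2 above), as were cortical excitatory neuron markers, at 7534 and 7826 CPM (median −0.25, 7 of 10 below and 2 above). The part of these cells in the members' ratios was not tested.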

How the data were processed

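Per Ensembl gene, the authors deposited a table of raw counts and one of RPKM values, covering 10 RNA libraries. Tools and builds named in the submitters' processing notes include STAR 2.4.0e, Bowtie 0.12.5, HTSeq 0.6.1 and MACS2 2.0.9 and mm9, with no step tied to a tool. The sources used here do not give the gene annotation or strand handling, so overlapping and antisense genes may share reads. Gene length was taken as deposited count over library total and RPKM in neocortex, where both libraries gave the same length within 1% for 100% of 12750 genes. The deposited RPKM of sorted cells were 0.254 to 0.456 times those computed from the counts with these lengths (median per library), for a reason that was not tested, and serve as an alternative alone. ChIP-seq peaks are not used here.

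All 54 members had a symbol by identifier. Sorted cells (5 against 3) were fitted over all genes with edgeR 4.0.16 (TMM, filterByExpr, robust quasi-likelihood, Benjamini-Hochberg limit 0.05) in R 4.3.3. SE is the absolute log2 difference over the square root of F. The fit was tested on simulated data. The neocortex pair was compared as log2 ratios of TMM-scaled CPM with prior count 2, among genes at 5 CPM or more in either library. Reads are not independent molecules, so intervals cover counting error alone. Alternatives were DESeq2 1.42.0, limma 3.58.1 on log2(RPKM + 0.1), RLE factors, no filter, a replicate block and leaving out libraries. Members and lists were chosen with earlier results of these data known. Values per library are given for members at an unadjusted p under 0.05, past 2-fold, or of highest level per length, and other members, such as Lama4 and Col9a3, were named after their values were seen.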

Additional observations from a re-analysis of the deposited data

Results flagged for a closer look

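In 6 of 37 genes checked in the 5 Fezf2 libraries, 1 library stood apart by its gap to the nearest other. In 5 of them it was Fezf2 replicate 2: Col4a2 (31.1 CPM against 13.3 to 17.3), Col18a1 (6.86 against 0.88 to 1.44), Lama4 (21.6 against 10.4 to 13.6), Col1a2 (10.8 against 2.84 to 3.99) and Nid1 (37.5 against 4.93 to 11.8). Col25a1 stood apart in Fezf2 replicate 1, at 6.19 CPM against 0 to 1.58.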

How the results depend on the processing

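No member was called under any alternative run. The count at an unadjusted p under 0.05, 3 as reported, all higher, was 6 with no low-count filter (4 higher, 2 lower), 1 by limma on RPKM, 0 with the replicate block, 1 to 6 with 1 library left out (1 without Fezf2 replicate 2 or GFP replicate 3, 6 without Fezf2 replicate 3, and 1 higher with 2 lower without GFP replicate 2), and 0 without Fezf2 replicates 1, 2 and 4 together, chosen after seeing the data. For libraries of equal replicate number the correlations of deviations were −0.05, −0.01 and −0.05, within the range of the other pairs (−0.06 to 0.08). So few pairs cannot exclude a shared animal or day. The median of basement membrane members stayed above 0 in every fit (0.25 to 0.49 with 1 library left out), and that of fibrillar members was 0.07 to 0.49 with 1 library left out and 0.00245 with no filter, where scarcer genes enter. Members past 2-fold higher in neocortex were 3 at a minimum of 1 CPM (with Col3a1 and Col6a1) and 0 at 10 CPM, since fewer genes reach that level. Signs turned in sorted cells, also for values well away from 0 such as Nid2 and Col5a2. With 1 library left out, log2 fold changes were −0.23 to 0.18 for Col4a2, −0.15 to 0.0874 for Col11a1, −1.10 to 0.13 for Col5a2, −0.99 to 0.39 for Col2a1, −0.16 to 1.22 for Nid1, −0.0113 to 0.0583 for Agrn and −0.18 to 0.0728 for Itgb1. With the replicate block, Lamb1 was 0.0353, Col11a1 0.0150 and Adgrg1 −0.00041, and by limma on RPKM Col11a1 was 0.0825 and Itgb1 0.0325. Without Fezf2 replicates 1, 2 and 4, Nid1 was −0.39, Nid2 −0.21, Hspg2 −0.0494, Col4a2 −0.21, Col5a1 −0.51 and Itgb1 0.0547. With no filter, Fbln2 (1.26, edgeR adjusted p = 0.0198) and Itga6 (0.98, edgeR adjusted p = 0.0334) passed. That fit called 117 of 26328 genes, against 2 of 13754 with the filter. The cause of these turns was not tested.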
